A study of Mus musculus with 8 samples.

Results

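Cadherins, protocadherins and FAT proteins are cell surface proteins whose extracellular cadherin repeats bind calcium and let neighbouring cells recognise and hold each other. The genes described here were taken by symbol: every row whose name is Cdh with a number, starts with Pcdh, or is Fat1 to Fat4, Dchs1, Dchs2 or Celsr1 to Celsr3. This gave 61 of the 17613 genes in the deposited table, and all 61 passed the filter on low counts. They comprise 23 rows of clustered protocadherins, 11 protocadherins outside the clusters, 19 cadherins and 8 FAT, Dachsous and CELSR genes. The rule reads symbols only, but the set was proposed with earlier results of these data known.

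The study sequenced polyadenylated RNA from mouse brain in 8 libraries, 4 labelled knockout (KO) for Uhrf2 and 4 labelled wild type (WT), all from the C57BL/6 strain. Uhrf2 encodes a chromatin protein that recognises modified cytosines, and the study's title concerns local DNA methylation and seizures. The labels give no age, mutant allele, promoter or Cre driver, and do not say whether each library is a separate animal, so p-values measure the spread between these libraries. Library totals were 13550420 to 19065173 counts in the KO-labelled group and 11891350 to 19773921 in the WT-labelled group, and the lowest count of any member in any library was 34.

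The targeted gene was read first as a check of the labels, and its level was higher in the libraries labelled KO. Uhrf2 had 88.8 ± 2.23 CPM (reads relative to the effective library size) in the libraries labelled KO and 55.4 ± 5.22 CPM in those labelled WT (SD, n = 4 each), a log2 fold change of 0.68 (SE 0.06, adjusted p = 5.45e-06, edgeR's quasi-likelihood F test). Counts are per gene and the mutant allele is not given, so whether the labels are right cannot be told here. Directions below are therefore those between libraries so labelled. Brain markers were present in every library: the summed level of 5 neuronal markers ran from 4590 to 5062 CPM in the KO-labelled libraries and from 4489 to 4920 CPM in the WT-labelled ones. Pituitary markers summed to at most 3.06 CPM in any library.

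In the brain, clustered protocadherins give neurons a surface identity: alpha, beta and gamma genes lie side by side, and each neuron uses a subset whose promoters are chosen by CTCF, cohesin and DNA methylation. Non-clustered protocadherins of the delta groups guide sorting, axon growth and synapse turnover, and human PCDH19 is a known epilepsy gene. Type I and type II cadherins link to the actin skeleton through catenins. Fat4 and Dchs1 form a receptor and ligand pair in tissue polarity, and the CELSR proteins carry planar polarity signals and steer axon tracts.

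The promoters of Pcdh8, Fat4 and Pcdh19 are shown because these genes were given as markers of the set and Uhrf2 is a reader of modified cytosine. Each window is RefSeq sequence on GRCm38.p6, from 250 bases before to 50 after the annotated start, printed 5′ to 3′ on the gene's strand, with every CG dinucleotide, the site of DNA methylation, in capitals. The Pcdh8 window is chr14:79771263-79771562 on the minus strand, that of Fat4 is chr3:38886690-38886989 on the plus strand, and that of Pcdh19 is chrX:133688944-133689243 on the minus strand.
Pcdh8: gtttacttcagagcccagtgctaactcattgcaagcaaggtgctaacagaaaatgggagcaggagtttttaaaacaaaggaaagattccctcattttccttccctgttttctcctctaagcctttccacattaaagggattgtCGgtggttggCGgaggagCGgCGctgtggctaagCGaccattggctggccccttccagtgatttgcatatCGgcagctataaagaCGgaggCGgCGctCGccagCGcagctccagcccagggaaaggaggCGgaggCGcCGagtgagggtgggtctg
Fat4: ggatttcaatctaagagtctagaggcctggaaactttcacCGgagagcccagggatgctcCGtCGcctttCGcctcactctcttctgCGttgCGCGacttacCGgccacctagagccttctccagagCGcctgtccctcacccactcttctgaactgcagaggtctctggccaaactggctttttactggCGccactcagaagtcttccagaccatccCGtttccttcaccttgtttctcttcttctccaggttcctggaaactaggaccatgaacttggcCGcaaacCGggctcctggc
Pcdh19: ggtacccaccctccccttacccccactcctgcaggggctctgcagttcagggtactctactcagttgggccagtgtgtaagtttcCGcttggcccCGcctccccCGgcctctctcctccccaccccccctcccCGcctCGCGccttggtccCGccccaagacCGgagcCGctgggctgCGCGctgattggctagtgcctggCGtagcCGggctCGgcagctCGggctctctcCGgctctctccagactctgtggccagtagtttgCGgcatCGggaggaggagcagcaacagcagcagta

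The Pcdh8 window held 14 CG, the Fat4 window 13 and the Pcdh19 window 18. The median was 7 over the 32851 windows of the table and 16 over 30 windows of members, matched by symbol for 27 of the 36 members off chromosome 18. Cdh1, Cdh4, Cdh5, Cdh11, Cdh13, Cdh19, Celsr1, Dchs1 and Pcdh11x were not among them, and windows on chromosome 18 were left out. The letters TATAAA, searched on both strands, were in the Pcdh8 window and in 13.6% of all windows. CCAAT was in the Pcdh8 and Pcdh19 windows and in 37.4% of all windows, and neither motif was in the Fat4 window. These are descriptions of the sequence, since no methylation value was used here. The deposited locus of Fat4 starts at 38874569 and that of Pcdh19 ends at 133707262. Both reach upstream of the printed windows on the gene's strand, and other start sites were not examined.

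Across the 61 genes, 3 changed at an adjusted p under 0.05 taken over all 15902 genes tested (edgeR, quasi-likelihood fit; p-values adjusted after Benjamini and Hochberg). Pcdh8 and Pcdh1 rose and Fat4 fell in the libraries labelled KO. The share called was 4.92% of the members, against 1.43% of all genes tested in either direction, 1.14% called higher and 0.289% called lower. At an unadjusted p under 0.05, 4 of 61 members had a higher level, against 1025 of 15902 genes (6.45%). A lower level was found for 11 of 61, against 979 of 15902 (6.16%). Together these were 24.6% of the members, against 12.6% of all genes. The groups of 4 libraries did not overlap for 7 members, 11.5% of them against 7.67% of all genes. In the higher direction these were 3 of 61, against 680 of 15902 genes (4.28%), and in the lower 4 of 61, against 540 of 15902 (3.40%). The fold change was below 0 for 39 of 61 members (63.9%, against 52.0% of all genes), and its median was -0.06 on the log2 scale, against -0.005 for all genes.

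**Figure D1:**
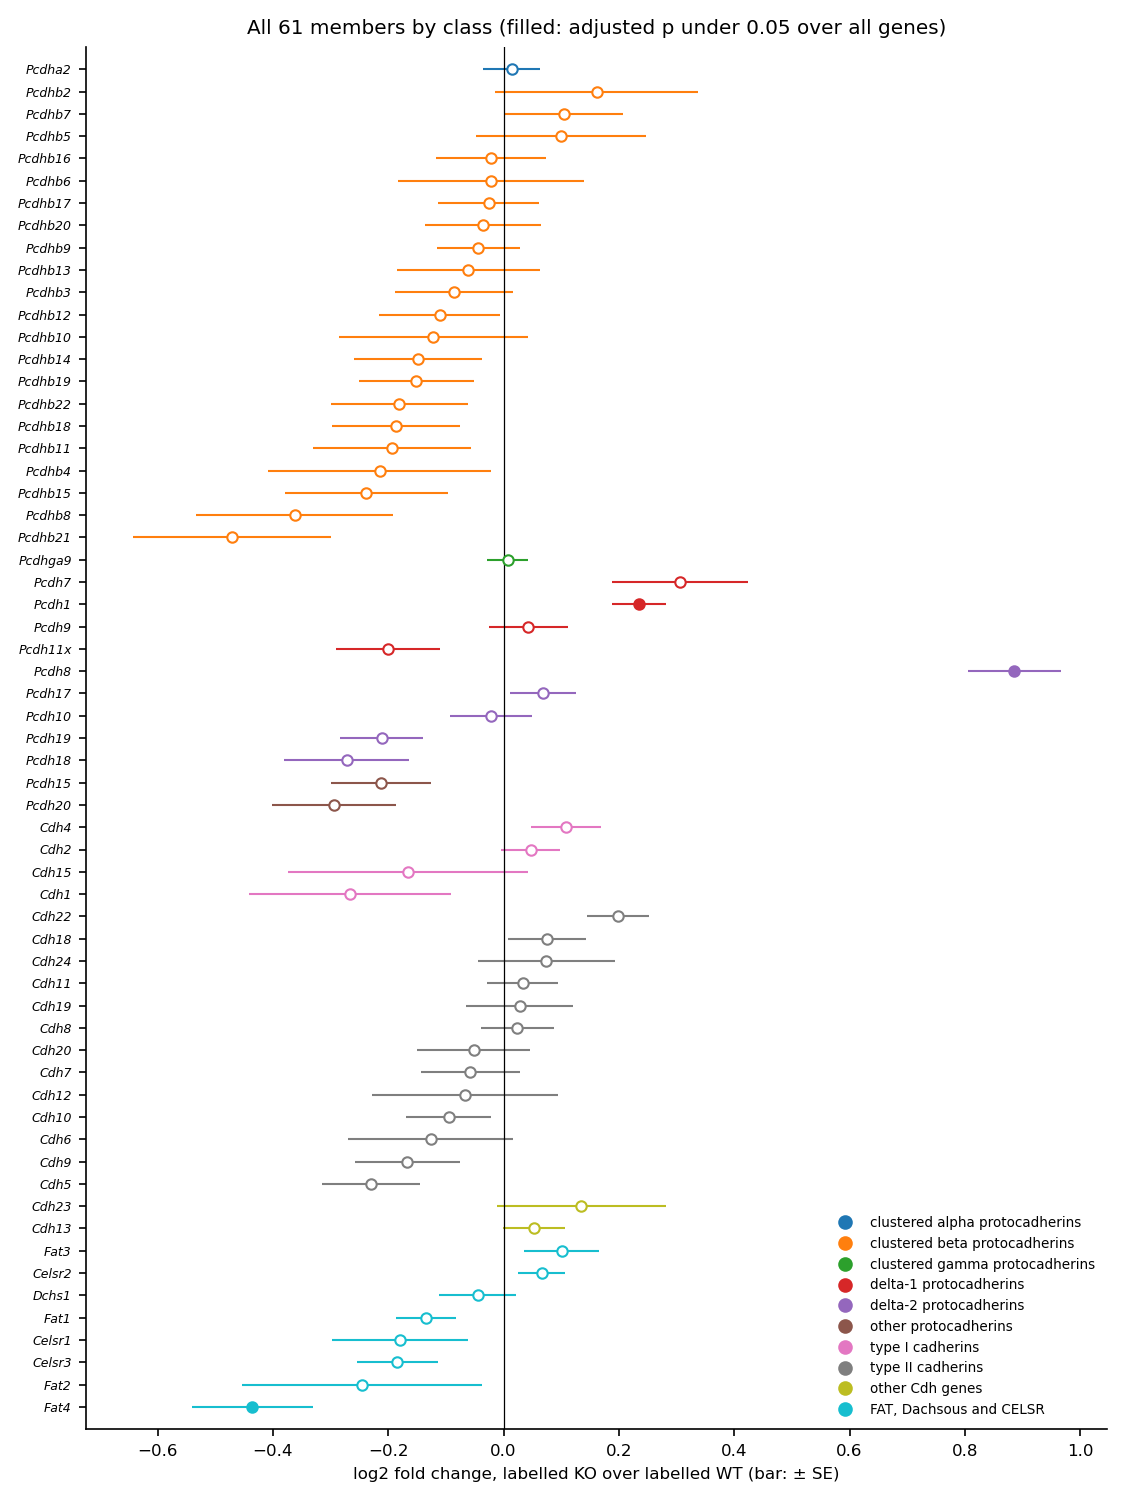
Log2 fold change of each of the 61 genes (x axis, libraries labelled KO over those labelled WT; bars are ± SE), grouped by class, with genes past the adjusted threshold filled. Pcdh8 stands apart at 0.89, Pcdh1 is at 0.24 and Fat4 at -0.44, while 18 of the 21 beta protocadherins lie below 0.

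Pcdh8, also called paraxial protocadherin or arcadlin, is a delta-2 protocadherin that neuronal activity induces and that, in rat neurons, takes N-cadherin off the synaptic surface. Its levels were 66.0, 50.8, 51.8 and 55.1 CPM in KO-labelled libraries 1 to 4, against 30.3, 32.7, 27.3 and 30.7 CPM in WT-labelled libraries 1 to 4. The lowest KO-labelled library was above the highest WT-labelled library by more than the whole range of the WT-labelled group. The level was 1.85-fold higher in the libraries labelled KO, a log2 fold change of 0.89 (SE 0.08, adjusted p = 1.76e-05, edgeR), the rank of its p being 7 among all genes tested. Per kilobase of transcript, Pcdh8 had 14.0 CPM in the KO-labelled and 7.56 CPM in the WT-labelled libraries.

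Some single markers of brain regions differed between the same groups. Of 4 markers of the hippocampal CA fields, Wfs1 was higher in the libraries labelled KO (144 against 104 CPM, adjusted p = 0.000131, edgeR) and the other 3 had fold changes below 0. Of 5 markers of the dentate gyrus, also in the hippocampus, Dsp was lower in the libraries labelled KO (2.79 against 6.23 CPM, adjusted p = 0.000129, edgeR). In this list 3 fold changes were below 0 and 2 above. The dentate list summed to 146 to 160 CPM in the KO-labelled and 155 to 170 CPM in the WT-labelled libraries. The CA list summed to 165 to 187 CPM in the KO-labelled and 128 to 139 CPM in the WT-labelled libraries. Most of this sum was Wfs1, since the list means were 171 CPM in the KO-labelled and 135 CPM in the WT-labelled libraries. Fibcd1 went the other way without overlap, at 24.6 CPM in the KO-labelled and 28.2 CPM in the WT-labelled libraries (adjusted p = 0.228, edgeR). The 5 striatal markers summed to 423 to 458 CPM in the KO-labelled and 372 to 423 CPM in the WT-labelled libraries, with 2 of 5 called higher, against 1.14% of all genes. Their part in the Pcdh8 difference was not tested, and in bulk tissue more cells of a type and more RNA per cell cannot be told apart.

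Pcdh1, a delta-1 protocadherin, had the highest level per kilobase of transcript among the protocadherins outside the clusters, at 41.5 CPM in the KO-labelled and 35.3 CPM in the WT-labelled libraries. Unscaled by length it had 213, 222, 225 and 239 CPM in KO-labelled libraries 1 to 4 and 177, 198, 188 and 201 CPM in WT-labelled libraries 1 to 4. The groups did not overlap, and the closest libraries were 213 CPM in the KO-labelled and 201 CPM in the WT-labelled group. The 1.18-fold difference (log2 fold change 0.24, SE 0.05, adjusted p = 0.0131, edgeR) missed the threshold in 3 of 8 fits that left out a library: without WT replicate 3 (adjusted p = 0.0571), without KO replicate 3 (0.0501) and without KO replicate 4 (0.0672).

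Fat4 encodes the giant cadherin that binds Dchs1. Its levels were 9.55, 11.8, 13.3 and 14.8 CPM in KO-labelled libraries 1 to 4, against 15.4, 17.0, 16.5 and 18.3 CPM in WT-labelled libraries 1 to 4. Every KO-labelled library was below every WT-labelled library, with a gap between 14.8 CPM in the KO-labelled and 15.4 CPM in the WT-labelled group. Fat4 had a log2 fold change of -0.44 (SE 0.11, adjusted p = 0.0468, edgeR). The call was near the limit: the adjusted p was above 0.05 in 7 of 8 fits that left out a library, reaching 0.132 without WT replicate 4, and was 0.0242 without KO replicate 4. Genes annotated on the opposite strand overlap exons of Fat4 and Pcdh8, and also of other members, among them Pcdh19 and Pcdh7. On either strand, 16 members had such an overlap. The strand setting of the counting is not given in the sources used here.

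**Figure D2:**
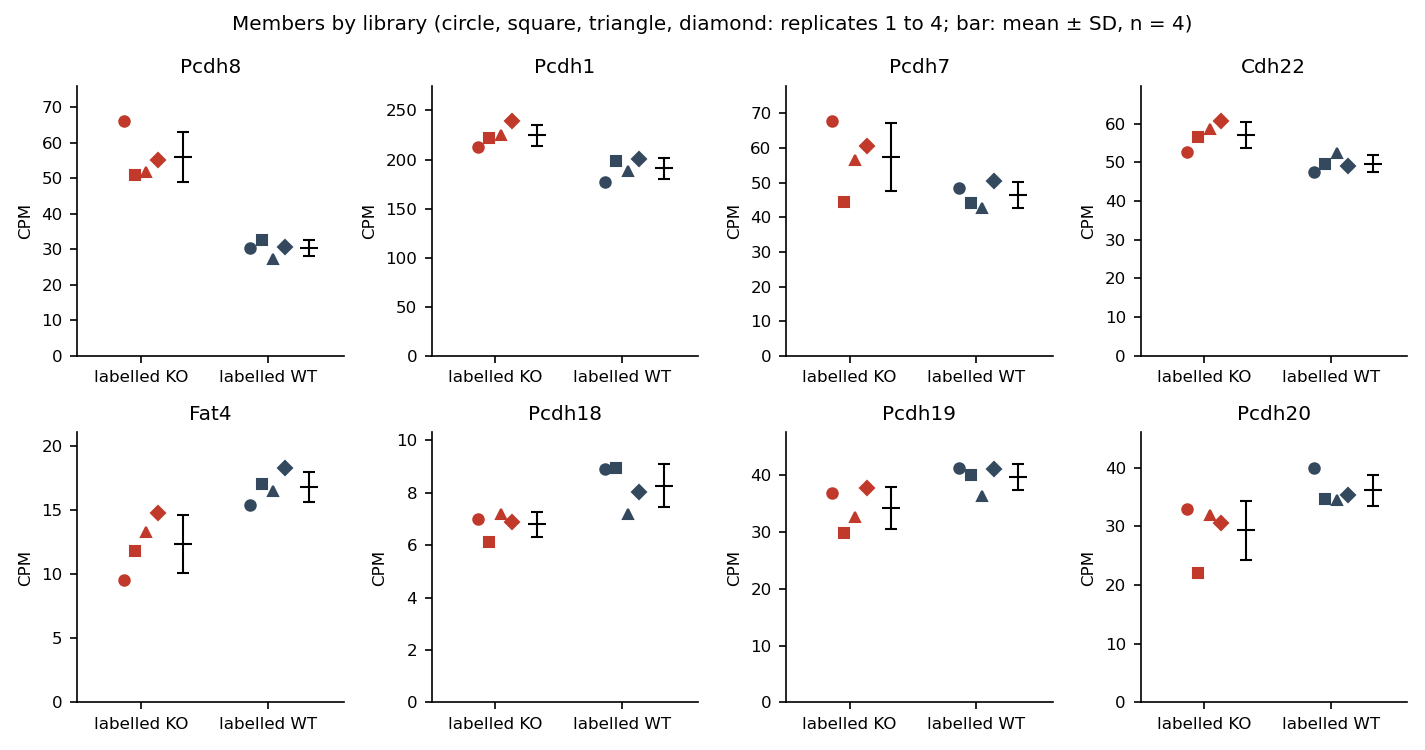
CPM (y axis, from 0) of 8 members in each library, libraries labelled KO left of those labelled WT, with mean ± SD (n = 4) beside each group. Pcdh8 is at 50.8 to 66.0 CPM in the KO-labelled and 27.3 to 32.7 CPM in the WT-labelled libraries, whereas Pcdh19 and Pcdh7 overlap between groups.

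Among the other delta-1 protocadherins, Pcdh7 had 67.7, 44.3, 56.5 and 60.6 CPM in KO-labelled libraries 1 to 4 and 48.4, 44.0, 42.6 and 50.5 CPM in WT-labelled libraries 1 to 4. KO replicate 2 alone lay among the WT-labelled libraries. Over all libraries Pcdh7 had a log2 fold change of 0.31 (SE 0.12, adjusted p = 0.322, edgeR), and without KO replicate 2 it was 0.41 (adjusted p = 0.00463). Pcdh9 averaged 73.4 ± 7.66 CPM in the KO-labelled and 71.4 ± 4.73 CPM in the WT-labelled libraries. The X-linked Pcdh11x averaged 19.1 ± 2.28 and 22.1 ± 2.36 CPM in the KO-labelled and WT-labelled libraries (adjusted p = 0.362, edgeR).

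The delta-2 group held members on both sides of 0. Pcdh19, whose human counterpart causes an epilepsy when mutated, had 36.8, 29.8, 32.7 and 37.8 CPM in KO-labelled libraries 1 to 4, against 41.3, 40.1, 36.4 and 41.0 CPM in WT-labelled libraries 1 to 4. KO replicates 1 and 4 lay above WT replicate 3, so the groups overlapped, and the log2 fold change of -0.21 (SE 0.07, adjusted p = 0.193, edgeR) did not pass. Pcdh18 had 6.80 ± 0.473 CPM in the KO-labelled and 8.27 ± 0.835 CPM in the WT-labelled libraries (adjusted p = 0.284, edgeR), and its groups were separate only beyond the third digit, at 7.19 CPM in the closest library of each. Pcdh10 averaged 151 ± 15.1 CPM in the KO-labelled and 154 ± 11.5 CPM in the WT-labelled libraries, and Pcdh17 86.2 ± 6.92 CPM in the KO-labelled and 82.3 ± 4.60 CPM in the WT-labelled libraries.

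Both protocadherins outside the delta and clustered groups had fold changes below 0. Pcdh20 had 32.9, 22.0, 32.0 and 30.5 CPM in KO-labelled libraries 1 to 4, against 40.0, 34.6, 34.5 and 35.4 CPM in WT-labelled libraries 1 to 4. The groups did not overlap, yet the log2 fold change of -0.29 (SE 0.11) had an adjusted p of 0.268 by edgeR. KO replicate 2 was the lowest by a wide margin, and without it the log2 fold change was -0.18 (adjusted p = 0.205, edgeR). Pcdh15, a tip link protein of inner ear hair cells, averaged 12.1 ± 0.607 CPM in the KO-labelled and 13.9 ± 1.40 CPM in the WT-labelled libraries (adjusted p = 0.302, edgeR). Of the 11 non-clustered protocadherins, 8 (72.7%) had an unadjusted p under 0.05, 3 higher and 5 lower, against 12.6% of all genes.

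The clustered genes on chromosome 18 were measured unevenly. The alpha row, named Pcdha2, spans the whole alpha cluster in the file's locus (36930284 to 37187657 on GRCm38), and its identifier belongs to Pcdha11 in GENCODE M21. The gamma row, named Pcdhga9, spans 37674334 to 37841873, and its identifier belongs to Pcdhgc4. Each of these loci is also given for 1 other row, so it may be wider than the gene counted. The alpha and gamma rows may hold reads of several genes of their cluster, which was not tested. Since the counting is not described, their values cannot be assigned to single alpha or gamma genes here. The 21 beta genes Pcdhb2 to Pcdhb22 each have a row. Pcdhb21 and Pcdhb22 share an exon stretch, and whether reads were shared among the beta rows was not examined. Not analysed here were 41 annotated genes of the family with no row of their own, among them Pcdhb1 and Pcdh12.

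The alpha and gamma rows differed little between the groups. Pcdhga9 had 661, 631, 642 and 672 CPM in KO-labelled libraries 1 to 4 and 635, 666, 651 and 641 CPM in WT-labelled libraries 1 to 4 (log2 fold change 0.01, SE 0.04). Its adjusted p was 0.967 by edgeR. Pcdha2 had 181, 161, 168 and 178 CPM in KO-labelled libraries 1 to 4 and 180, 175, 158 and 168 CPM in WT-labelled libraries 1 to 4 (log2 fold change 0.01, SE 0.05, adjusted p = 0.949, edgeR). In both rows the groups covered nearly the same range.

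Most beta protocadherins had fold changes below 0, and none passed the test by edgeR, against 1.43% of all genes. Of 21 genes, 18 had a fold change below 0 (85.7%, against 52.0% of all genes), the median was -0.11 on the log2 scale, and 2 had an unadjusted p under 0.05 (9.52%, against 12.6% of all genes). The groups were separate for 0 of the 21, against 7.67% of all genes. Their smallest adjusted p was 0.234, for Pcdhb21, with 4.10, 2.36, 3.33 and 2.67 CPM in KO-labelled libraries 1 to 4 and 4.88, 3.68, 4.84 and 3.82 CPM in WT-labelled libraries 1 to 4. Pcdhb8 averaged 2.93 ± 0.512 CPM in the KO-labelled and 3.77 ± 0.738 CPM in the WT-labelled libraries (adjusted p = 0.391, edgeR). Genes that lie in 1 cluster and share the same 8 libraries are not independent replicates behind this count.

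Levels and fold changes varied along the beta cluster. Per kilobase, Pcdhb9 had the highest level of the 21, at 6.07 CPM in the KO-labelled and 6.24 CPM in the WT-labelled libraries, from 18.5 ± 0.994 CPM in the KO-labelled and 19.1 ± 1.23 CPM in the WT-labelled libraries. By GENCODE transcript length Pcdhb20 came next, at 3.28 CPM per kilobase in the KO-labelled and 3.36 in the WT-labelled libraries. Pcdhb17 followed, at 3.04 in the KO-labelled and 3.08 in the WT-labelled libraries. Some of these lengths exceed the stretch of the gene in the deposited locus. For Pcdhb17 the length is 4660 bases, against a stretch from 37485020 to 37488289. The order after Pcdhb9 may therefore depend on the lengths used. The median log2 fold change was -0.02 over Pcdhb2 to Pcdhb8, with 4 of 7 genes below 0, -0.12 over Pcdhb9 to Pcdhb15 and -0.15 over Pcdhb16 to Pcdhb22, with 7 of 7 below 0 in each of these stretches. No difference between the stretches was tested.

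**Figure D3:**
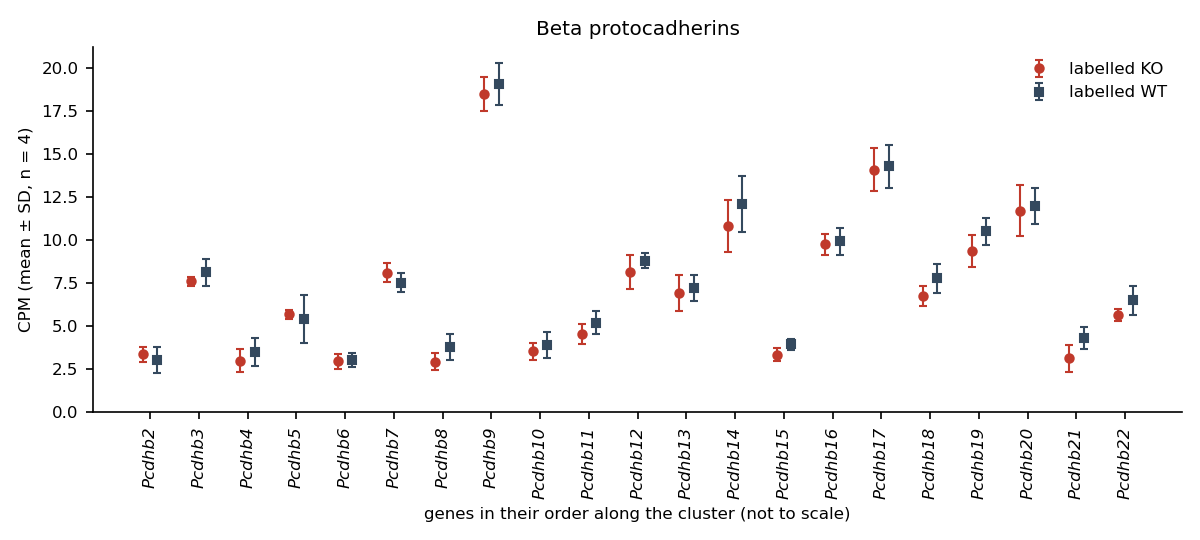
Mean CPM ± SD (y axis, n = 4) of the 21 beta protocadherins in their order along the cluster (x axis, not to scale), libraries labelled KO left of those labelled WT. Pcdhb9 is highest at 18.5 CPM in the KO-labelled and 19.1 CPM in the WT-labelled libraries, and the error bars of most genes overlap.

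Of the 19 cadherins 0 passed the threshold by edgeR, against 1.43% of all genes, and 2 had an unadjusted p under 0.05 (10.5%, against 12.6%). DESeq2 and both limma-voom fits also called 0 of the 19. The median log2 fold change was 0.02, with 9 of 19 below 0 (47.4%, against 52.0% of all genes). Among type I cadherins, the classical N-cadherin Cdh2, which holds synapses and neural tissue together, had 148, 128, 129 and 129 CPM in KO-labelled libraries 1 to 4 and 138, 125, 125 and 129 CPM in WT-labelled libraries 1 to 4 (adjusted p = 0.776, edgeR). Cdh4, or R-cadherin, averaged 38.8 ± 2.71 CPM in the KO-labelled and 35.9 ± 1.63 CPM in the WT-labelled libraries. Cdh1, or E-cadherin, averaged 4.27 ± 1.32 CPM in the KO-labelled and 5.06 ± 0.624 CPM in the WT-labelled libraries.

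Type II cadherins mark subsets of neurons, and Cdh5 the endothelium. Cdh22 had 52.7, 56.4, 58.6 and 60.6 CPM in KO-labelled libraries 1 to 4 and 47.5, 49.6, 52.5 and 49.1 CPM in WT-labelled libraries 1 to 4. The groups were separate by a narrow gap between 52.7 CPM in the KO-labelled and 52.5 CPM in the WT-labelled group, and the log2 fold change of 0.20 (SE 0.05, adjusted p = 0.0847, edgeR) passed only without KO replicate 1 (adjusted p = 0.0407) among the fits that left out a library. Cdh8 and Cdh11 averaged 44.4 ± 3.16 and 44.5 ± 3.44 CPM in the libraries labelled KO and 43.8 ± 3.06 and 43.5 ± 2.34 CPM in those labelled WT. The 9 further type II genes had log2 fold changes between -0.17 and 0.08, and none of them passed by edgeR.

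Cdh5, or VE-cadherin, had 12.4, 12.5, 12.6 and 12.7 CPM in KO-labelled libraries 1 to 4 and 15.5, 14.2, 16.3 and 12.8 CPM in WT-labelled libraries 1 to 4 (log2 fold change -0.23, SE 0.09, adjusted p = 0.243, edgeR). WT replicate 4 was close to the KO-labelled range. The 6 endothelial and mural markers had 6 of 6 fold changes below 0, against 52.0% of all genes, and 0 calls, against 1.43%. These markers summed to 208 to 218 CPM in the KO-labelled and 223 to 240 CPM in the WT-labelled libraries, again with WT replicate 4 the lowest of its group. Their part in the Cdh5 values was not tested.

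The remaining Cdh genes lie outside the classical types. Cdh13, or T-cadherin, which is held in the membrane by a lipid anchor, averaged 69.3 ± 3.05 CPM in the KO-labelled and 66.8 ± 4.35 CPM in the WT-labelled libraries (adjusted p = 0.749, edgeR). Cdh23, the partner of Pcdh15 in the tip link, averaged 5.70 ± 0.985 CPM in the KO-labelled and 5.18 ± 0.804 CPM in the WT-labelled libraries (adjusted p = 0.769, edgeR).

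In the FAT, Dachsous and CELSR group 6 of 8 fold changes were below 0 (75.0%, against 52.0% of all genes), with a median of -0.16 on the log2 scale. Fat4 was the only call (12.5%, against 1.43% of all genes). Its ligand Dchs1 averaged 22.6 ± 1.09 CPM in the KO-labelled and 23.3 ± 1.52 CPM in the WT-labelled libraries (adjusted p = 0.855, edgeR). Fat1 averaged 113 ± 6.00 CPM in the KO-labelled and 124 ± 8.26 CPM in the WT-labelled libraries (log2 fold change -0.13, SE 0.05, adjusted p = 0.275, edgeR). Celsr3, which steers axon tracts, had 145, 183, 157 and 176 CPM in KO-labelled libraries 1 to 4 and 171, 196, 201 and 182 CPM in WT-labelled libraries 1 to 4. These groups overlapped through KO replicates 2 and 4, with a log2 fold change of -0.18 (SE 0.07, adjusted p = 0.290, edgeR). Celsr2 and Fat3 were the members of this group with fold changes above 0, at 0.07 (SE 0.04) and 0.10 (SE 0.07), and did not pass.

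Fat2 and Cdh15 were scattered in the KO-labelled group. Fat2, a FAT cadherin of cerebellar granule cells, had 112, 155, 124 and 77.1 CPM in KO-labelled libraries 1 to 4 and 144, 128, 154 and 129 CPM in WT-labelled libraries 1 to 4. Cdh15, or M-cadherin, which is known from muscle and cerebellar granule cells, had 12.3, 13.4, 12.3 and 6.48 CPM in KO-labelled libraries 1 to 4 and 14.0, 12.5, 13.7 and 9.84 CPM in WT-labelled libraries 1 to 4. KO replicate 4 was the lowest library for both genes, and the sum of 6 cerebellar markers was also lowest there, at 862 CPM, against 1063 to 1129 CPM in the other KO-labelled and 1006 to 1273 CPM in the WT-labelled libraries. Without KO replicate 4 the log2 fold change of Fat2 was -0.09 in place of -0.25, and that of Cdh15 was 0.02 in place of -0.17. The part of the amount of cerebellum was not tested.

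**Figure D4:**
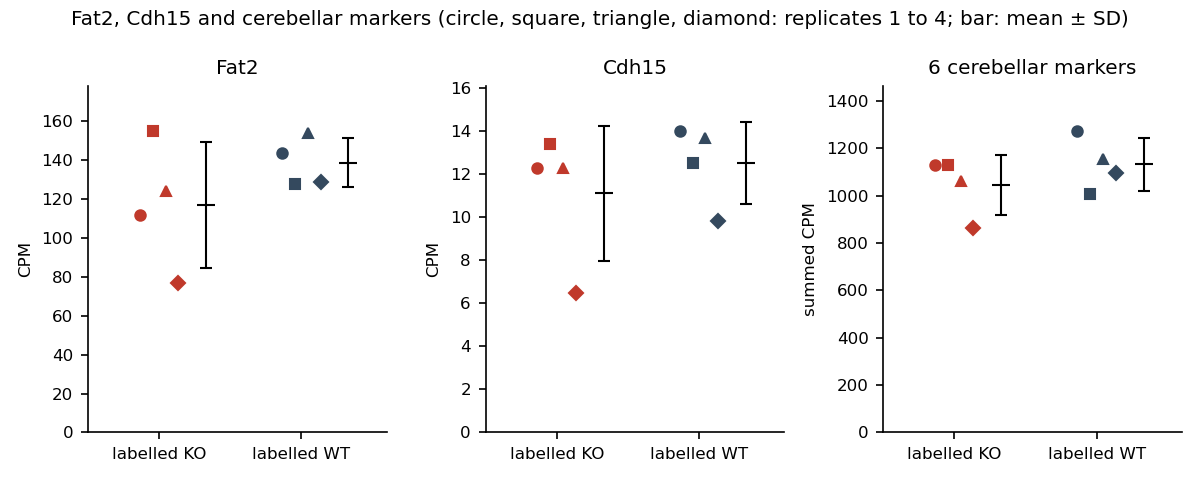
CPM of Fat2 and Cdh15 and the summed CPM of 6 cerebellar markers (y axes, from 0) in each library, libraries labelled KO left of those labelled WT, with mean ± SD (n = 4). The diamond of KO replicate 4 is the lowest point in all 3 panels, at 77.1, 6.48 and 862 CPM.

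Summed by class, the members gave 3075 ± 82.6 CPM in the KO-labelled and 3059 ± 22.9 CPM in the WT-labelled libraries. The clustered protocadherins summed to 973 ± 31.8 CPM in the KO-labelled and 979 ± 18.4 CPM in the WT-labelled libraries. Most of this was the rows Pcdhga9 (652 CPM in the KO-labelled and 648 CPM in the WT-labelled libraries) and Pcdha2 (172 CPM and 170 CPM). As said above, these rows cannot be assigned to single genes. The cadherins summed to 588 ± 24.4 CPM in the KO-labelled and 578 ± 15.4 CPM in the WT-labelled libraries. The ratio of clustered protocadherins to cadherins was 1.63 to 1.68 in the KO-labelled and 1.65 to 1.75 in the WT-labelled libraries, so these ranges overlapped. For the beta genes alone the ratio to cadherins was 0.247 to 0.264 in the KO-labelled and 0.266 to 0.286 in the WT-labelled libraries, which did not overlap. The beta sum itself overlapped, at 139 to 157 CPM in the KO-labelled and 154 to 171 CPM in the WT-labelled libraries. The ratio of beta to gamma overlapped too, at 0.219 to 0.242 in the KO-labelled and 0.236 to 0.270 in the WT-labelled libraries. No test was made on these sums or ratios.

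Outside the clusters, protocadherins summed to 750 ± 54.9 CPM in the KO-labelled and 695 ± 28.2 CPM in the WT-labelled libraries, a ratio to cadherins of 1.21 to 1.32 in the KO-labelled and 1.17 to 1.23 in the WT-labelled libraries. Within them the delta-1 group had a mean sum of 375 CPM in the KO-labelled and 331 CPM in the WT-labelled libraries, with KO replicate 2 just below the highest WT-labelled library. Of this difference, 0.18 on the log2 scale, 0.10 was left without Pcdh1. Pcdh15 and Pcdh20 together summed to 33.2 to 45.4 CPM in the KO-labelled and 48.3 to 52.1 CPM in the WT-labelled libraries, the only class whose groups did not overlap. The FAT, Dachsous and CELSR genes summed to 763 ± 28.4 CPM in the KO-labelled and 808 ± 27.9 CPM in the WT-labelled libraries, which overlapped.

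**Figure D5:**
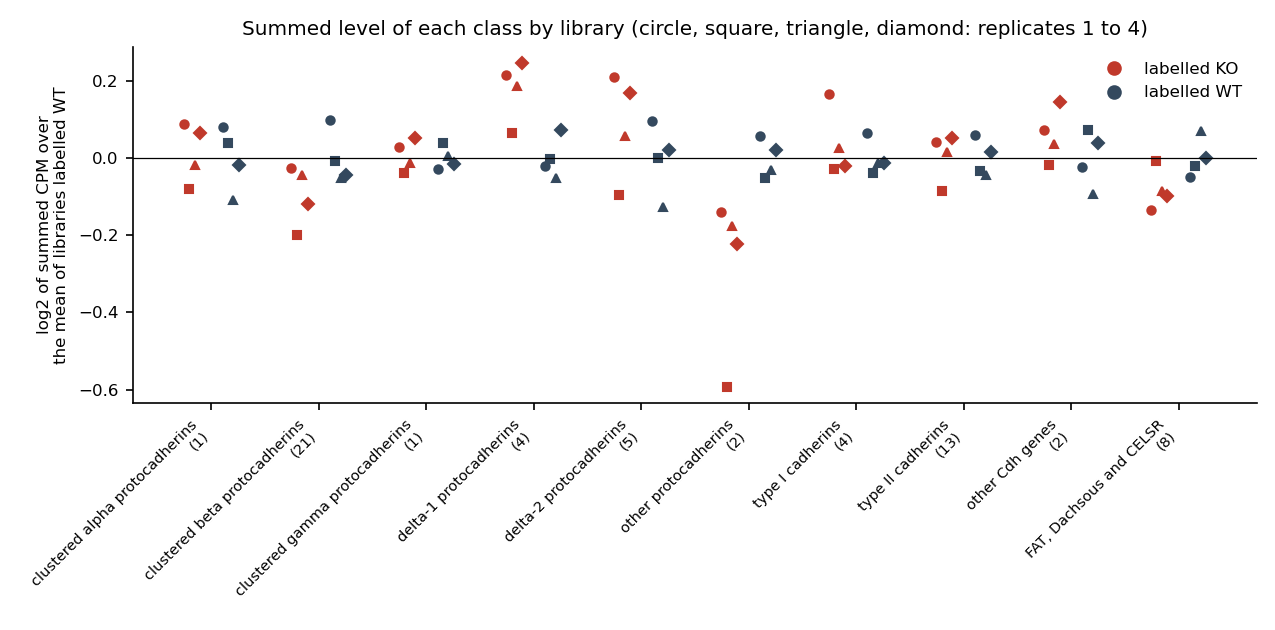
Log2 of the summed CPM of each class in each library, over the mean of the libraries labelled WT (y axis), with the number of rows of the class in brackets (x axis) and libraries labelled KO left of those labelled WT. The class of Pcdh15 and Pcdh20 is at 33.2 to 45.4 CPM in the KO-labelled and 48.3 to 52.1 CPM in the WT-labelled libraries, with KO replicate 2 lowest.

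Single libraries stood out across the members. KO replicate 2 had the lowest level of all 8 libraries for 23 of 61 members (37.7%), against 12.6% of all genes tested, and WT replicate 1 had the highest for 21 of 61 (34.4%), against 16.5%. In KO replicate 2 the oligodendrocyte marker sum was 7065 CPM, the highest of the 8 libraries, and the neuronal marker sum was 4590 CPM, the lowest of the KO-labelled group. The part of these in the member values was not tested. Without KO replicate 2 the called members were Pcdh8, Pcdh1 and Pcdh7, and without WT replicate 1 they were Pcdh8 and Pcdh1.

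Genes that work with these proteins were read from lists of 62 measured partners, and 0 passed the threshold by edgeR, against 1.43% of all genes. At an unadjusted p under 0.05 there were 3 (4.84%, against 12.6% of all genes), and DESeq2 and both limma-voom fits also called 0. Among 7 catenins, which tie cadherins to actin, Ctnnb1 averaged 571 CPM in the KO-labelled and 552 CPM in the WT-labelled libraries and Ctnnd1 81.0 CPM in the KO-labelled and 85.5 CPM in the WT-labelled libraries, and the list's median log2 fold change was -0.01. The 12 planar polarity genes had a median of -0.001, with Prickle2 at 0.13 (adjusted p = 0.446) and Vangl2 at -0.12 (adjusted p = 0.517, edgeR). The 16 genes of CTCF, cohesin and silencing at the clustered promoters had a median of -0.04, with Wiz lowest in p at -0.15 (SE 0.06, adjusted p = 0.267, edgeR) and Smc3 at -0.09.

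Of 8 sheddase and gamma-secretase genes, which cut protocadherins at the membrane, Adam17 averaged 24.7 CPM in the KO-labelled and 27.2 CPM in the WT-labelled libraries (adjusted p = 0.379, edgeR), and Psenen 9.32 CPM in the KO-labelled and 8.28 CPM in the WT-labelled libraries. Among 11 genes of the WAVE complex and of the kinases bound by protocadherin tails, Ptk2, the focal adhesion kinase, had 131, 114, 135 and 128 CPM in KO-labelled libraries 1 to 4 and 120, 114, 106 and 112 CPM in WT-labelled libraries 1 to 4 (log2 fold change 0.17, SE 0.05, adjusted p = 0.156, edgeR). Its groups overlapped through KO replicate 2, and Ptk2b differed less, at 0.03 on the log2 scale. Brk1, next to Ptk2 in p, had 114 to 116 CPM in the KO-labelled and 108 to 110 CPM in the WT-labelled libraries. Its log2 fold change was 0.08 (SE 0.04, adjusted p = 0.403, edgeR). Among the 62 partners only Brk1 had groups that did not overlap (1.61%, against 7.67% of all genes). Of 18 listed further genes of the cadherin superfamily 8 were tested, with Clstn3 at 0.06 and Clstn1 at 0.05 on the log2 scale, and both had adjusted p-values above 0.5.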

How the data were processed

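The deposited table holds expected counts (estimated read counts per gene, not scaled), made by the authors. Per the submitters' processing notes, the genome build was GRCm38 (mm10) and the tools included edgeR and TopHat2 2.0.9, whose roles are not stated. Of the values, 91.5% were whole within 0.001; 26 of 488 member values, in 9 members, were fractional. The counting program is not given in the sources used here.

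Counts were rounded, filtered with filterByExpr (15902 genes kept) and scaled by TMM, and the libraries labelled KO were compared with those labelled WT by edgeR 4.0.16 (R 4.3.3; robust quasi-likelihood test, group the only term, Benjamini-Hochberg adjustment over all tested genes, threshold 0.05). The fit was checked on simulated counts. SE comes from the coefficient and its F statistic. For Uhrf2, exact permutation over the 70 splits, two-sided, gave p = 0.0286, the smallest possible. Positions and transcript lengths are from GENCODE M21, promoters from RefSeq. A count of 3 corresponds to 0.152 to 0.252 CPM, which covers counting error only. Within each group, every pair of libraries had counts that differed beyond sampling noise (chi-square per degree of freedom 2.46 to 5.04), so all 8 were kept; pairs across groups were not compared in this way.

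Members and lists were chosen with earlier results of these data known. Named are Pcdh8, Pcdh19, Fat4, Uhrf2, every member called or with separate groups, the 3 highest in mean CPM and the 2 lowest in p of each class, and the 2 lowest in p of each partner list. Pcdh11x, Dchs1 and Fat3 were named after their values were seen, to complete their classes, as were Wfs1 and Dsp, markers that moved. Ptk2b was named beside Ptk2 outside this rule, and the fold change of Brk1 was not followed over the alternatives. Deviations of same-numbered libraries correlated at r = 0.227, 0.0853, -0.00658 and 0.0959 for replicates 1 to 4. Only the first exceeded 0.1. Differently numbered libraries gave -0.151 (KO replicate 1 with WT replicate 3) to 0.166 (KO replicate 2 with WT replicate 3). The numbers were not taken to pair the libraries, though these values do not settle it, and a replicate block was tried as an alternative. Alternatives tried were upper-quartile and median-ratio scaling, other filters, DESeq2 1.42.0, limma-voom 3.58.1 with and without quality weights, GC and length correction, a replicate block and leaving out libraries.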

Additional observations from a re-analysis of the deposited data

Results flagged for a closer look

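In 168 groups of 4 libraries (each member, class sum and named partner gene but Brk1, with Uhrf2, Wfs1 and Dsp), 6 had a library far from the other 3 by Dixon's 95% criterion. Chance gives about 1 in 20, so the number flagged was no larger than chance gives. For Cdh15 the libraries labelled KO held 6.48 CPM in replicate 4, against 12.3, 12.3 and 13.4 CPM in the others; this is the library in which the cerebellar marker sum was lowest. For Cdh2 they held 148 CPM in replicate 1, against 128, 129 and 129 CPM, for Pcdhb2 4.03 CPM in replicate 1, against 3.12, 3.12 and 3.14 CPM, and for the CA field marker Wfs1 163 CPM in replicate 1, against 136, 137 and 138 CPM. For Cdh9 they held 10 CPM in replicate 2, against 10.8, 10.8 and 10.9 CPM. For Uhrf2 the libraries labelled WT held 47.7 CPM in replicate 2, against 57.2, 58.0 and 58.9 CPM.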

How the results depend on the processing

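Over 32 named members and 19 alternatives, 566 of 608 values kept their direction and their side of the threshold, 12 lost and 8 gained significance and 22 changed sign, in 10 members that never passed. With each library left out in turn, the genes called were 110 to 324, the members called 1 to 3 and the partner genes called 0 to 1 (Ptk2, without KO replicate 2). Without both libraries numbered 1, an alternative chosen after seeing the data, 162 genes and 2 members (Pcdh8, Pcdh1) were called. Fat4 had an adjusted p of 0.0699 there and 0.0553 by limma-voom. With a replicate block, 495 genes and 7 members were called (Pcdh8, Pcdh1, Pcdh7, Cdh22, Fat4, Pcdh20, Celsr3), in place of 228 and 3; with the replicate block and GC content and length trends removed, 519 genes, 5 members and 2 partner genes (Ptk2, Wiz). With the GC and length trends removed alone, 308 genes and 1 partner gene (Ptk2) were called. DESeq2 called 311 genes.

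Values that changed sign were all within 0.05 of 0. Pcdhga9 was at -0.006 with the GC and length trends removed, -0.007 with the replicate block added and -0.007 without both libraries numbered 1. Pcdh10 was at 0.003 with quality weights, 0.006 with the trends removed and 0.005 with the block added. Leaving out single libraries gave -0.019 to 0.045 for Pcdha2, -0.075 to 0.031 for Pcdhb17, -0.122 to 0.028 for Pcdhb20, -0.079 to 0.001 for Pcdhb9, -0.008 to 0.022 for Pcdhga9, -0.008 to 0.108 for Pcdh9, -0.066 to 0.044 for Pcdh10, -0.267 to 0.019 for Cdh15, -0.004 to 0.081 for Cdh2 and -0.014 to 0.068 for Cdh8. Without its highest member, the summed level differed by 0.1 on the log2 scale for the delta-1 group, 0.140 for the Cdh genes outside the types and -0.143 for the FAT, Dachsous and CELSR group. The causes were not tested, apart from the members or libraries left out by construction. The fitted common coefficient of variation was 5.38%, and genes of a few CPM, such as most beta protocadherins, have wider errors.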
